A study of Mus musculus with 12 samples.

Results

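The 6 microRNAs (miRNAs) described here are mmu-miR-132, mmu-miR-212, mmu-miR-219, mmu-miR-183, mmu-miR-96 and mmu-miR-182, written below without the species prefix, which are known for roles in the clock of the suprachiasmatic nucleus, the light-entrained pacemaker of the brain, or in the retina. They were chosen by name, as the unstarred entries of these names on the array, and make up 6 of 650 array entries, of which 611 are mouse miRNAs and 39 are herpesvirus miRNAs. They were measured in total RNA of liver from adult mice on a daily schedule of 12 h light followed by darkness, which ate and drank at will. Livers were collected every 4 h from ZT18 to ZT62, where ZT (zeitgeber time) counts hours from lights on. For each collection, equal amounts of RNA from 2 livers went into 1 pool, which was labelled with Cy3 and hybridised to its own Agilent miRNA array. Strain and age are not given in the sources used here, and no treatment, genotype or infection is named for any group. The 12 pools fall into 6 in the dark (ZT18, 22, 38, 42, 46 and 62) and 6 in the light (ZT26, 30, 34, 50, 54 and 58). Every clock time was sampled at 2 collections 24 h apart, called cycle 2 for the later and cycle 1 for the earlier one. Since each value comes from a pool, the spread between arrays holds differences between mice, reduced by averaging 2 livers, together with pooling, labelling and hybridisation error, and these cannot be told apart.

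A miRNA is cut as a duplex from a hairpin in its precursor and guides Argonaute to messenger RNAs that pair with its seed, the bases near its 5′ end. In the suprachiasmatic nucleus of mice, miR-132 is induced by light through the transcription factor CREB, and miR-219 is a target of the CLOCK and BMAL1 complex, the activator at the heart of the clock. miR-212 lies beside miR-132 in the same primary transcript. miR-183, miR-96 and miR-182 form a cluster that is abundant in photoreceptors and other sensory cells, and in mouse retina its members change with light and over the day and can repress adenylyl cyclase 6. These roles come from neural tissue, and the arrays here give the signal of the same miRNAs in liver.

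All 6 members matched a mature sequence in RefSeq (build GRCm38.p6), at 7 loci. The sequences are shown because some members share a seed or most of their bases with each other and still differed in their detection calls. Such calls can depend on the probe as well. They run 5′ to 3′ with the seed (bases 2 to 8) in capitals.
miR-132-3p, chr11:75173723-75173744, plus strand: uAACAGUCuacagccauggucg
miR-212-3p, chr11:75173443-75173464, plus strand: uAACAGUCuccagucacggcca
miR-219a-5p, chr2:29845689-29845709 and chr17:34025052-34025072, both minus strand: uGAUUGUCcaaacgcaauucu
miR-183-5p, chr6:30169711-30169732, minus strand: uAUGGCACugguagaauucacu
miR-96-5p, chr6:30169506-30169528, minus strand: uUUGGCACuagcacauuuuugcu
miR-182-5p, chr6:30165962-30165986, minus strand: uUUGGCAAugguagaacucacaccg

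miR-132 and miR-212 have one seed, AACAGUC, which no other mature mouse miRNA in the RefSeq table carries. Their first 9 bases are the same, and 17 of 22 positions are identical (77.3%). They differ by A10C, C14U, U17C, U20C and G22A, with the base of miR-132 first and positions counted from the 5′ end. Their hairpins are separated by 203 bases on chromosome 11. In the cluster on chromosome 6, the hairpins of miR-96 and miR-183 are separated by 116 bases and those of miR-182 and miR-96 by 3453 bases. miR-96 and miR-182 share their first 7 bases and differ in the seed by C8A, while miR-183 differs from miR-96 in the seed by A2U. miR-183 and miR-182 differ in the seed by A2U and C8A, with 18 of the 22 positions compared identical (81.8%). miR-182 has 25 bases, and the last of them have no counterpart in miR-183. miR-219a is made from 2 loci, on chromosomes 2 and 17, with one mature sequence, so the array cannot tell which locus gave a signal. Each member has 2 probes with 10 spots each on an array.

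Of these 6 miRNAs, miR-212 was the one called detected throughout the liver series, and its neighbour with the same seed, miR-132, was not detected on any array. The scanner software called miR-212 detected on 12 of 12 arrays, miR-219 on 6, miR-96 on 3, and miR-132, miR-183 and miR-182 on 0 of 12. Among all 611 mouse entries, 17.8% were detected on all 12 arrays, 17.2% on some and 65% on none, so the split of 1, 2 and 3 members lies near the make-up of the array as a whole. If the arrays were independent draws, a count of 0 of 12 would allow a detected share of arrays of up to 26.5% (upper limit of the exact 95% interval). They are pools of set collection times on shared slides, so this limit is only a rough guide.

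The spots gave a finer grading than the call per array. A spot was called well above background, or, by a weaker criterion of the software, positive and significantly above background. For miR-212, all 234 spots kept over the 12 arrays were well above background. For miR-219, 4.50% of 222 kept spots were well above background, but 96.0% were positive and significant. For miR-96, 5.24% of 229 kept spots were well above background and 86.0% were positive and significant. These 2 miRNAs were therefore dim, with a signal in nearly every spot of one and most spots of the other. The source of these dim signals was not tested.

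The remaining 3 members had shares of positive spots below that of the negative control spots. The positive and significant share was 22.7% of spots for miR-182, 17.2% for miR-132 and 10% for miR-183. It was 24.6% for the spots of the 7 negative control probes and 14.9% over the 427 entries detected on no array. Among those 427 entries, 69 had a share at least as high as that of miR-182, 101 at least as high as that of miR-132 and 225 at least as high as that of miR-183. None (0) reached the share of miR-219 or miR-96. The only other arm of a member on the array, miR-183*, was detected on 0 arrays and had a scaled intensity of -1.49 ± 4.64 (SD, n = 12 arrays). Not being detectable on these arrays does not show that a miRNA was absent from the liver.

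**Figure D1:**
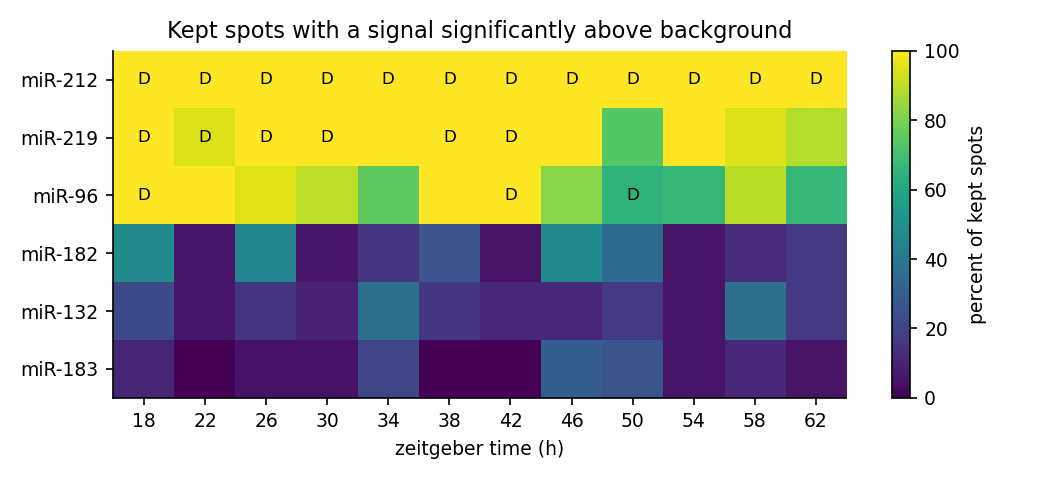
Percent of the kept spots of each miRNA (rows) that were positive and significantly above background on each array (columns, zeitgeber time in h), with D where the software called the miRNA detected. miR-212 is at 100% and detected on all 12 arrays, miR-219 and miR-96 are high but called detected on 6 and 3 arrays, and miR-182, miR-132 and miR-183 are low throughout.

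Scaled intensity, the background-subtracted signal of the brighter probe after each array was set to a common 75th percentile, was then followed over time. Intensities of different probes depend on the probe and are not compared with each other. In time order from ZT18 to ZT62, miR-212 stood at 304.3, 229.9, 285.2, 290.6, 326.1, 278, 307.6, 299.8, 347.7, 290.5, 299.2 and 291 units. The lowest array was ZT22 and the highest ZT50, and the other 10 lay between 278 and 326.1 units. The whole range is 1.51-fold. All 12 values were far above the floor of 22.2 units, the level under which values were not ordered, and above the 95th percentile of the negative control spots of their own array.

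Both miR-212 probes told the same course. Their highest array, ZT50, was also the highest for the dimmer probe of every other member. The brighter one averaged 295.8 ± 28.1 units and the dimmer one 120 ± 18.5 units (SD, n = 12 arrays). Their values correlated with r = 0.957 over the 12 arrays, which share library and hybridisation, and their ratio stayed between 2.16 and 2.66. The log2 level of miR-212 had an SD of 0.14 over the arrays, against a median SD of 0.10 over the 109 entries never at the floor, and 66.1% of those entries varied less.

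**Figure D2:**
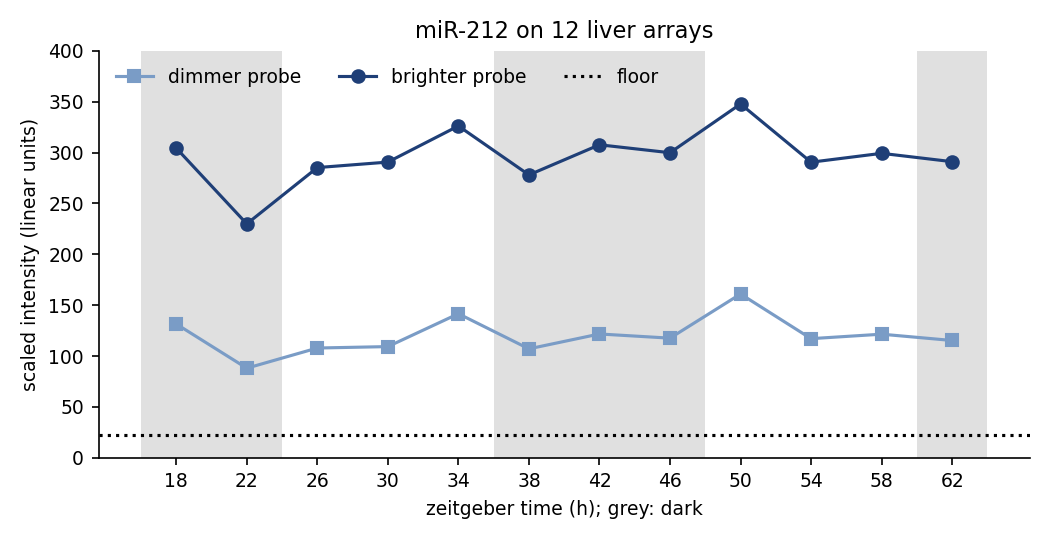
Scaled intensity (linear units) of the 2 miR-212 probes against zeitgeber time (h), 1 pool of 2 livers per point, with collection times in the dark in grey and the floor dotted. Both lines dip at ZT22 and peak at ZT50, and both lie above the floor on all 12 arrays.

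The title of the series names circadian rhythm, and the first question was whether miR-212 follows a 24-h course in liver. The mean of the 2 pools was 316.4 ± 44.2 units at 2 h after lights on, 290.6 ± 0.0230 at 6 h, 312.6 ± 19.0 at 10 h, 284.5 ± 9.23 at 14 h, 306 ± 2.28 at 18 h and 264.9 ± 49.5 at 22 h (SD, n = 2 pools). The highest and lowest clock-time means differ by 1.199-fold. The 2 pools at 22 h, 299.8 units at ZT46 and 229.9 at ZT22, differ by 1.30-fold, and the 2 pools at 2 h by 1.22-fold. Both are wider than the 1.199-fold span of the means. At the other clock times the 2 pools differ by 1.09-fold or less. The fitted 24-h peak-to-trough fold was 1.07, with an upper 95% limit of 1.33, and it did not pass limma's F test (adjusted p = 0.971). Of 133 entries tested, 0 passed this test after adjustment (0%) and 5 at an unadjusted p under 0.05 (3.76%). In simulated data of 133 entries, the test recovered 30% of rhythms with a 1.2-fold change and 80% of those with a 1.5-fold change. These shares are not for miR-212 alone, which varied more than 66.1% of the entries never at the floor. A small rhythm of miR-212 could have been missed.

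Dark and light were compared next. miR-212 was 304.3, 229.9, 278, 307.6, 299.8 and 291 units at ZT18, 22, 38, 42, 46 and 62 in the dark, with a lowest value of 229.9, a median of 295.4 and a highest of 307.6. In the light it was 285.2 at the lowest, 294.9 at the median and 347.7 at the highest. The groups overlapped widely, and their medians were nearly the same. The mean log2 level was 8.15 ± 0.16 in the dark and 8.26 ± 0.11 in the light (SD, n = 6 each), a fold of 0.928 with a 95% interval of 0.832 to 1.04. This did not pass limma's test (adjusted p = 0.761), and 5 of 6 dark pools lay below the light mean. The light pools of ZT26, ZT30, ZT54 and ZT58 lay below that mean too. Over all 133 entries tested, 0 were called (0%), with 10 at an unadjusted p under 0.05 (7.52%). The median of all tested mouse entries was -0.03 on the log2 scale and 88 of 129 were lower in the dark.

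Without the ZT22 pool the dark over light difference of miR-212 was -0.05 on the log2 scale, against -0.11 with it. With the slide as a block it was -0.09 (adjusted p = 0.844), and within the first slide, which held 8 arrays, it was also -0.09 (adjusted p = 0.993). Its sign depended on the scaling: when arrays were scaled over all probes, most of which carry no signal, the difference was 0.32 on the log2 scale. That scaling moved the median of all tested entries to 0.38, and relative to that median miR-212 stood at -0.06, against -0.08 with the scaling used here. With normexp background correction, the difference was -0.21 and the median of all tested entries -0.36, so relative to the median miR-212 stood at 0.15 and the sign turned.

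Cycle 2 was compared with cycle 1 at equal clock times. All cycle 1 arrays were on the first slide, and all arrays of the second slide were from cycle 2. Cycle and slide are therefore largely confounded. miR-212 had a log2 level of 8.25 ± 0.10 over the cycle 2 arrays, against 8.15 ± 0.17 over the cycle 1 arrays (SD, n = 6 each), or 1.07-fold with a 95% interval of 0.967 to 1.19. It was higher in cycle 2 in 4 of 6 pairs, and the difference did not pass limma's test (adjusted p = 0.882). With the slide as a block, the difference was 0.20 on the log2 scale, against 0.10 without it, and did not pass limma's test either (adjusted p = 0.9625). Of the 133 entries, 0 were called (0%) and 5 reached an unadjusted p under 0.05 (3.76%). The dark over light fold in cycle 2 divided by that in cycle 1 was 1.07, with an interval of 0.864 to 1.33, and did not pass limma's interaction test (adjusted p = 0.922). In that test 0 of 133 entries were called and 1 reached an unadjusted p under 0.05 (0.752%).

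The dim members were compared on intensity without a floor, over all 650 entries, by exact permutation of the dark and light arrays. With 924 arrangements the smallest possible p is 0.00216, and at least 29 entries would have to reach it for any to pass after adjustment. In this test 0 of 650 entries passed after adjustment (0%), and 41 reached an unadjusted p under 0.05 (6.31%). The 24-h permutation test on the same values called 0 entries (24 at an unadjusted p under 0.05, 3.69%). The test between cycles, an exact permutation of the signs of 6 pairs, called 0 as well (15 at an unadjusted p under 0.05, 2.31%), and it could pass only if 407 entries reached its smallest p of 0.0312.

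miR-219, the CLOCK and BMAL1 target of the suprachiasmatic nucleus, was faint and steady. In time order from ZT18 to ZT62 the brighter probe gave 15.49, 13.2, 15.37, 13.75, 14.56, 16.97, 16.34, 16.76, 11.55, 18.02, 14.32 and 13.84 units. All its values lay below the floor. All 12 lay above the highest mean of any negative control probe on the same array, and 11 above the 95th percentile of the negative control spots. Dark pools averaged 15.4 ± 1.58 units and light pools 14.6 ± 2.12 (SD, n = 6 each), with full overlap. The difference of 0.839 ± 1.08 units (SE) did not pass the exact permutation test (two-sided p = 0.446, adjusted p = 0.927). The 24-h permutation test gave p = 0.767 (adjusted p = 0.997), and cycle 2 minus cycle 1 was 0.247 units with 3 of 6 pairs higher (exact p = 0.75, adjusted p = 0.951).

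The arrays on which miR-219 was called detected followed the slide. They were ZT18, 22, 26, 30, 38 and 42, which are 6 of the 8 arrays of the first slide, and 0 of the 4 arrays of the second slide (ZT50 to ZT62). In the dark it was called on 4 arrays and in the light on 2, while the second slide held 1 dark array. The SD of the negative control spots was 5.43 to 10.3 units on the second slide and 2.57 to 4.82 units on the first. The positive and significant share of miR-219 spots was 89.3% on the second slide and 99.3% on the first. The part of the slide in these calls was not tested.

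miR-96, a member of the sensory cell cluster, was faint and uneven. In time order it was 14.55, 10.04, 7.037, 12.66, 16.04, 9.02, 17.74, 8.612, 30.09, 8.915, 13.46 and 7.785 units. One array, ZT50, stood far above the rest and was the only one over the floor. The dimmer probes of all 6 members were also highest at ZT50, so a high value there is not particular to miR-96. The brighter probes of miR-219, miR-182, miR-132 and miR-183 were not highest at ZT50. The same array had the noisiest negative control spots, with an SD of 10.3 units and a 95th percentile of 25.7 units, and 1 of the 3 detection calls (ZT18, ZT42 and ZT50) came from it. All 12 values lay above the highest negative control probe mean, and 8 above the 95th percentile of negative control spots.

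Dark pools of miR-96 averaged 11.3 ± 3.96 units and light pools 14.7 ± 8.20 (SD, n = 6 each), and the groups overlapped. The difference of -3.41 ± 3.72 units (SE) did not pass the exact permutation test (p = 0.439, adjusted p = 0.927). Without ZT50 it was -0.332 units, so the size of the difference rested on that array. The 24-h permutation test gave p = 0.924 (adjusted p = 0.998), and cycle 2 minus cycle 1 was 2.87 units with 2 of 6 pairs higher (exact p = 0.844, adjusted p = 0.962).

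The other cluster members, miR-182 and miR-183, stayed around 0 units. miR-182 was 4.169, 1.599, 4.622, 1.013, -1.439, 3.456, 0.6378, 4.81, 2.865, 0.1138, 3.6 and -0.8741 units in time order. It averaged 2.30 ± 2.21 units in the dark and 1.80 ± 2.29 in the light (SD, n = 6 each), a difference of 0.504 ± 1.30 (SE, exact permutation p = 0.695, adjusted p = 0.989). miR-183 was 1.644, -0.9822, -0.4674, -0.2293, 0.9263, -0.7306, 1.17, 4.52, 1.381, -0.356, -1.664 and -3.696 units. Neither exceeded the 95th percentile of the negative control spots on any array (0 of 12 for each). The highest negative control probe mean was exceeded by miR-182 on 3 arrays (ZT26, ZT38 and ZT46) and by miR-183 on 0, and 1 of 220 kept spots of miR-182 was well above background.

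For miR-183 the dark mean was 0.321 ± 2.80 units and the light mean -0.0683 ± 1.09 (SD, n = 6 each), a difference of 0.389 ± 1.22 (SE, exact permutation p = 0.777, adjusted p = 0.989). The 24-h permutation p was 0.222 for miR-183 and 0.281 for miR-182, both with an adjusted p = 0.996. Cycle 2 minus cycle 1 was 0.199 units for miR-183 and -0.378 units for miR-182, with 2 of 6 pairs higher for each (exact p = 1 and p = 0.781). Of the 3 miRNAs made from this cluster, the software called miR-96 detected on 3 arrays and the other two on 0.

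miR-132, the light-induced miRNA of the suprachiasmatic nucleus, also stayed near 0. It was 2.821, 1.548, 1.279, 2.274, 3.422, 1.319, 2.343, 2.422, 0.1614, 0.6983, 5.709 and -0.525 units in time order. Its highest value, 5.709 units at ZT58, lay below the highest negative control probe mean of that array, 8.21 units. It exceeded that level on 1 array, ZT34 (3.422 against 2.677 units), and 0 of 12 values exceeded the 95th percentile of negative control spots. Dark pools averaged 1.66 ± 1.21 units and light pools 2.26 ± 2.05 (SD, n = 6 each). The difference of -0.602 ± 0.972 (SE) did not pass the exact permutation test (p = 0.574, adjusted p = 0.962). The 24-h permutation test gave p = 0.683 (adjusted p = 0.996), and cycle 2 minus cycle 1 was -0.309 units with 2 of 6 pairs higher (exact p = 0.625, adjusted p = 0.917). Its second probe averaged 0.376 ± 2.29 units (SD, n = 12 arrays), so both miR-132 probes averaged near 0 over the arrays on which miR-212 was called detected.

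**Figure D3:**
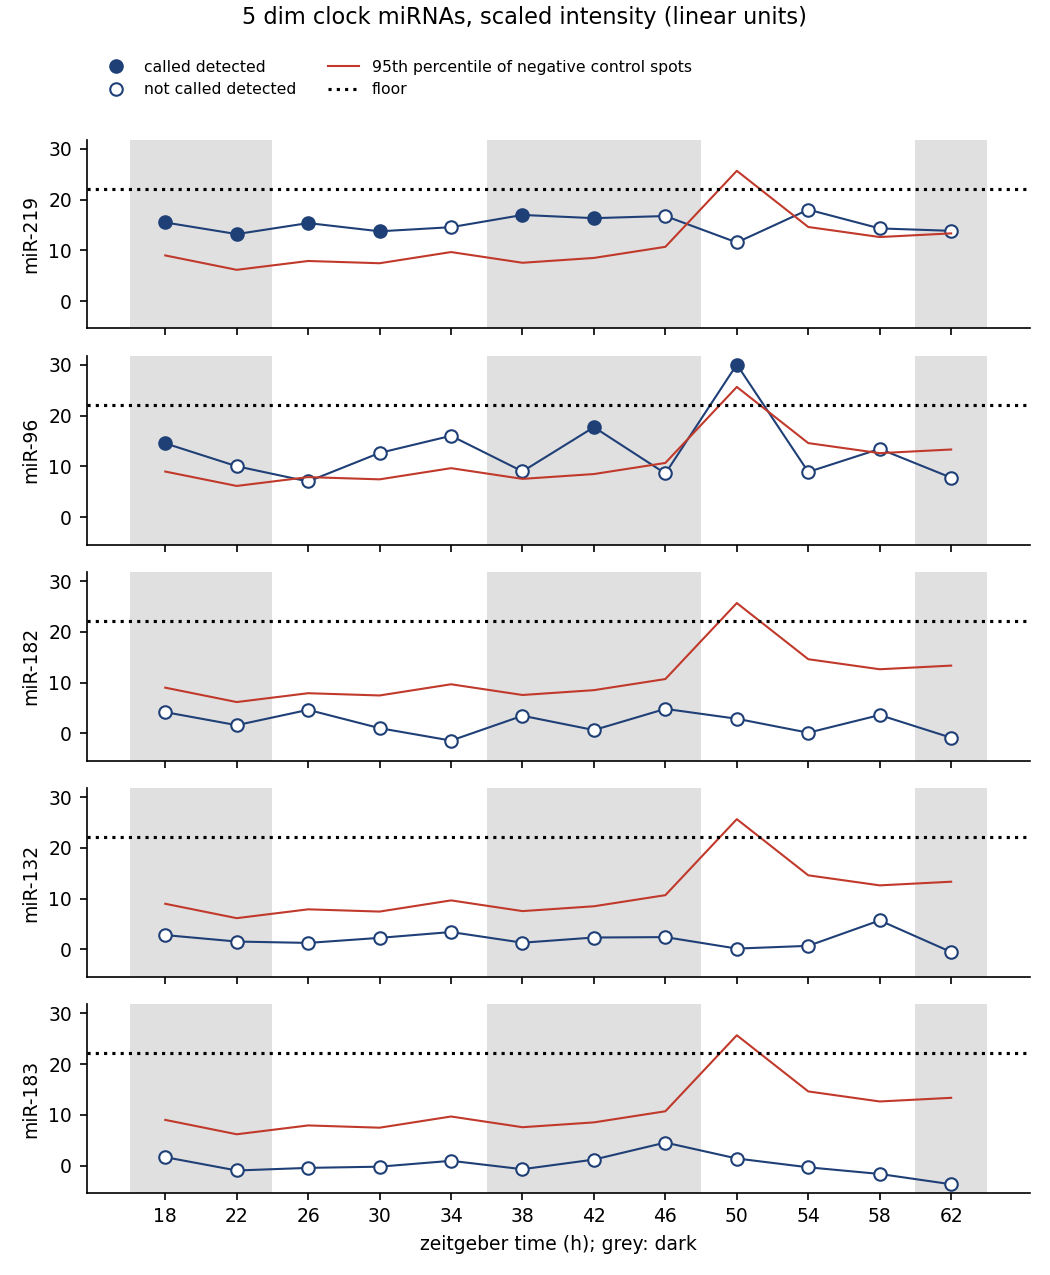
Scaled intensity (linear units, one scale for all panels) of miR-219, miR-96, miR-182, miR-132 and miR-183 against zeitgeber time (h), filled where called detected, with the 95th percentile of single negative control spots in red, the floor dotted and dark times in grey. miR-219 lies above the red line on 11 of 12 arrays, miR-96 on 8, and the other 3 stay below it on every array.

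**Figure D4:**
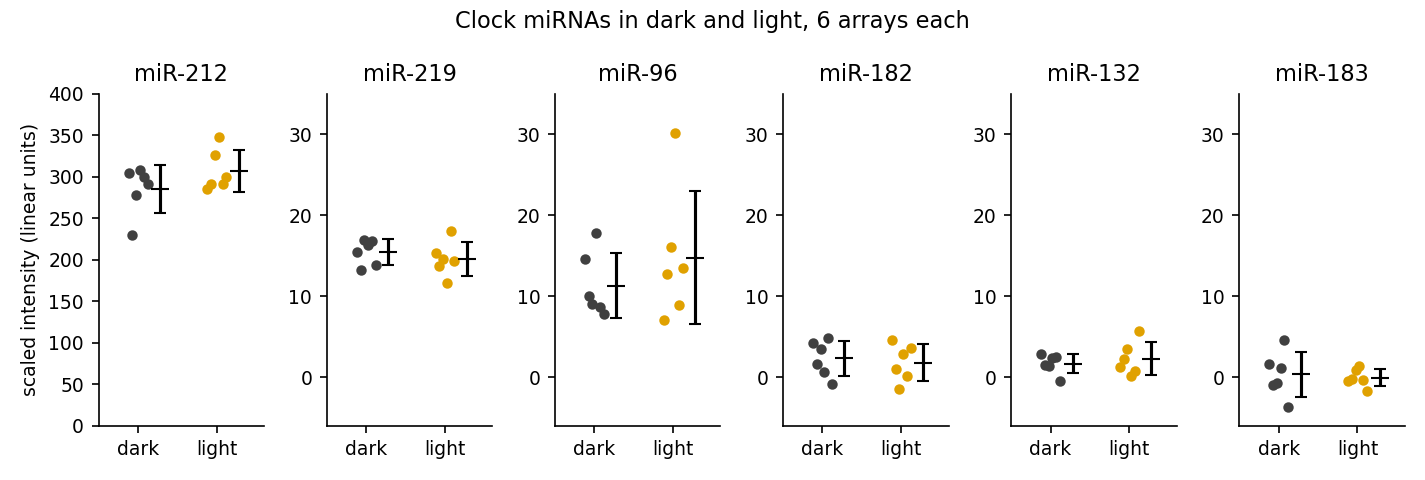
Scaled intensity (linear units) of each miRNA in the 6 dark and the 6 light pools, 1 point per array, with the mean and SD beside them and a separate axis for miR-212. The dark and light points overlap for all 6 miRNAs, and the light mean of miR-96 is raised by 1 array at 30.1 units.

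**Figure D5:**
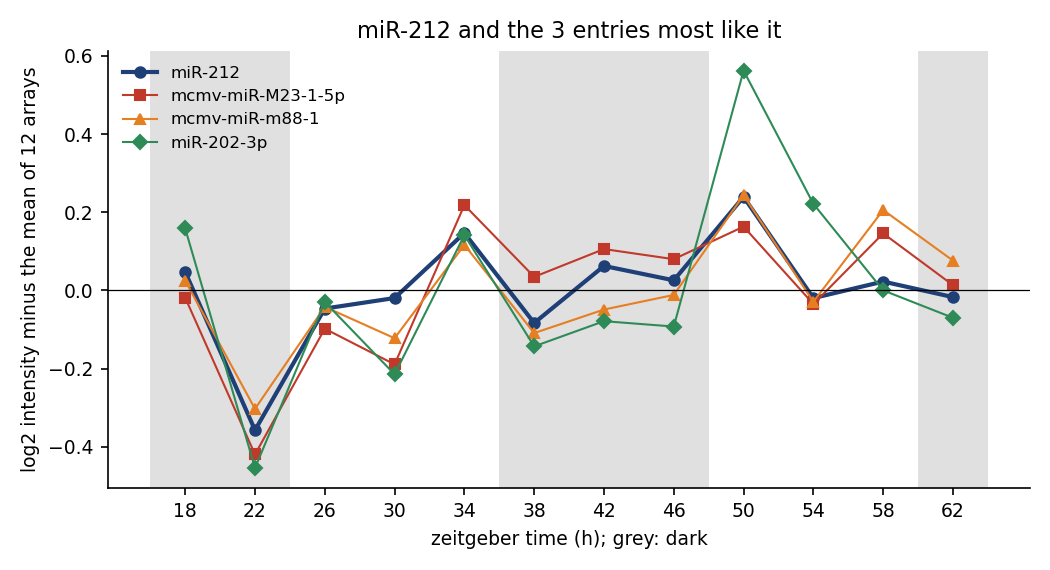
Log2 intensity minus its own mean over the 12 arrays, against zeitgeber time (h), for miR-212 and the 3 entries whose profile correlated most with it, with dark times in grey. All 4 lines are lowest at ZT22, and 3 of them, miR-212 among these, are highest at ZT50.

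The entries most like miR-212 over the 12 arrays were sought among the 108 others never at the floor, whose median Pearson r with miR-212 was 0.212. The top 3 were a pair of mouse cytomegalovirus entries, mcmv-miR-M23-1-5p (r = 0.865) and mcmv-miR-m88-1 (r = 0.848), and miR-202-3p (r = 0.837). All points share their arrays and scaling, so the values are a description and carry no test. Without the 2 arrays farthest from the median of miR-212, ZT22 and ZT50, r was 0.661, 0.531 and 0.444 in the same order. The 3 entries then ranked 19, 41 and 57 among the 108, so much of the likeness rests on those arrays. Within the first slide, which leaves out ZT50 but holds ZT22, r was 0.889, 0.943 and 0.872, with ranks of 5, 2 and 7. The lowest r was that of miR-143, a smooth muscle miRNA, at -0.620, and it was 0.0228 without the same 2 arrays.

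No infection is named for these mice, so the herpesvirus probes show signal measured without a named source of viral RNA. Of the 39 herpesvirus entries, 3 were detected on all 12 arrays (7.69%), 6 on some, at most on 7, and 30 on none. mcmv-miR-M23-1-5p averaged 151 ± 17.2 units, mcmv-miR-m88-1 86.8 ± 8.93 and mghv-miR-M1-2 30.1 ± 4.16 (SD, n = 12 arrays). Detection on every array, or on some, is thus also found for entries with no named template. Whether cross-hybridisation has a part in the signals of miR-212, miR-219 or miR-96 was not tested.

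The tissue label was set beside lists of marker miRNAs, which were chosen with earlier results of these data known and are no independent check. For scale, 17.8% of all 611 mouse entries were detected on all 12 arrays, 17.2% on some and 65% on none. All 7 hepatocyte miRNAs listed were detected on all 12 arrays, led by miR-122, the most abundant miRNA of hepatocytes, at 31560 ± 1309 units (SD, n = 12 arrays). Of 18 miRNAs of neurons and glia, 1 was detected on all arrays (miR-7a, 49.2 ± 3.11 units), 1 on some (miR-338-3p, 26.7 ± 2.55 units, 11 arrays) and 16 on none. miR-124, which defines neurons, was detected on 0 arrays at -2.47 ± 1.61 units. All 5 miRNAs of the retina list, which shares miR-124 and miR-9 with the neuron and glia list, were also detected on 0 arrays. In the biliary list, 0 of 5 were detected on all arrays, 3 on some (miR-200b on 11, miR-200a on 10 and miR-429 on 2) and 2 on none. In bulk RNA, fewer cells of a type and less RNA per cell cannot be told apart.

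Other miRNAs with clock roles reported outside the suprachiasmatic nucleus and retina were mostly measurable. Of 18 such miRNAs on the array, 13 were detected on all 12 arrays, 1 on some and 4 on none. They included miR-122, miR-192 at 3453 ± 144 units, miR-29a at 2071 ± 87.8 and miR-194 at 1078 ± 39.5 (SD, n = 12 arrays), miRNAs that are also abundant in hepatocytes in general. None of the 14 tested passed the 24-h, the dark over light or the cycle test (0 called in each), as with all 133 entries. Of these 14, 12 were lower in the dark, with a median of -0.02 on the log2 scale, beside -0.03 over all 129 mouse entries tested. Their median 24-h peak-to-trough fold was 1.05, beside 1.08 over all mouse entries tested.

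Across the 12 arrays, 132 to 162 entries were detected and 16.5% to 19.6% of spots lay well above background, and no spot was saturated (0). The lowest r between a pair of arrays was 0.989, taken across mouse miRNAs, which are not independent replicates. The first slide held 5 dark and 3 light arrays and the second 1 dark and 3 light, so slide and light are partly confounded. All arrays of the second slide were from cycle 2, so slide and cycle are largely confounded. Precision is limited by there being 12 arrays.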

How the data were processed

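The authors deposited 1 Agilent Feature Extraction file per array, with spot intensities on a linear scale from which background was already subtracted, per the file headers. The software version is 10.7.3.1 in the headers and 9.5.3.1 in the submitters' processing notes. The series table holds the same intensities (largest difference 0, column medians 0.661 to 4.12). TRIzol was used for extraction, per the labels' protocols. A genome build is not given in the sources used here, and sequences and coordinates are RefSeq's, on GRCm38.p6, with arms assigned by name.

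Control spots and outlier spots (3.82% to 6.94%) were left out, spots of a probe were averaged, and arrays were scaled to a common 75th percentile of the 157 probes that all 12 arrays detected (factors 0.865 to 1.10). A floor of 22.2 units was set before log2, and an entry was represented by its brighter probe. Entries detected on at least 6 arrays and above the floor on at least 1 were tested, 133 in all. Another 6 entries detected on at least 6 arrays, miR-219 among them, lay at the floor on all arrays. Tests used limma 3.58.1 in R 4.3.3 (files were read with version 1.17.8 of data.table), with a variance trend and Benjamini-Hochberg adjustment at 0.05. Intensities without the floor were tested by exact permutation, and for a 24-h rhythm by 100000 permutations. Limma's 24-h, dark over light and cycle tests were checked on simulated data. The dark minus light and 24-h permutation tests were checked there too, at an unadjusted p. In the simulated data, limma recovered 1.5-fold changes for 92.8% of entries between dark and light and 90.5% between cycles (133 entries).

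The members and the lists were chosen with earlier results of these data known. Named entries were the members, the 3 most and 1 least correlated with miR-212, the brightest 3 herpesvirus entries, and up to 4 per list, the brightest first, with defining markers added. A part of the rule that named the entries next in intensity was not used, since intensities of different probes are not comparable. The background alternative used normexp with an offset of 50 on the median signal, since the files hold no mean signal. Lists also covered endothelium (1 of 1 detected on all arrays), leukocytes (2 of 3) and red cells (2 of 2). Alternatives were the background, scaling, outlier, probe, filter, slide and cycle choices and leaving out each array.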

Additional observations from a re-analysis of the deposited data

How the results depend on the processing

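The number of entries past the threshold was 0 in nearly every setting. The exceptions were 1 entry (miR-451, adjusted p = 7.36e-10 by limma) for the 24-h rhythm with normexp, and 1 entry (miR-1895, adjusted p = 0.0378 by limma) between dark and light without ZT30, and the cause was not tested. miR-219 was detected on 0 arrays, against 6 by the software, when over 50% of the spots of the brightest or of any probe had to be well above background or when the intensity had to exceed the floor. miR-96 was detected on 0 arrays, against 3, by both spot rules, and on 1 by the floor. Requiring the software's summed signal to exceed its error by a factor of 3 gave 6 and 3 arrays again.

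Scaling over all probes gave miR-212 a dark over light difference of 0.32 and a cycle difference of -0.43 (log2), and 51.7 and -81.9 units without the floor. Relative to the median of all tested entries these were -0.06 and 0.07, against -0.08 and 0.08 in the scaling used, while normexp gave 0.15 and -0.15. That scaling split the tested entries into 126 higher and 5 lower in the dark, normexp into 23 and 116, quantile normalization into 64 and 68, no scaling into 84 and 48, and the scaling used into 41 and 92.

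The dim members changed sign, without passing any test, as follows (units, dark minus light). With normexp, miR-219 was -75.7, miR-183 -77.1 and miR-182 -77.9. miR-132 (-78.7) and miR-96 (-79.2), which kept their sign, lay at about the same value, so these differences are not particular to a member. With normexp the floor was 83.7 units, and the dark over light median of all tested entries was -0.36 on the log2 scale. With all-probe scaling, miR-96 was 0.984, and with quantile normalization miR-132 was 0.115. With outlier spots kept, miR-183 was -0.693 and miR-182 -0.761. With the mean of both probes, miR-219 was -0.749, miR-183 -0.783 and miR-182 -0.153. miR-183 was -0.247 with the slide as a block, and miR-96 was 0.0796 within the first slide. For cycle 2 minus cycle 1, normexp gave miR-132 76.3 and miR-182 77.01. It also gave miR-219 76.1, miR-183 77.4 and miR-96 77.3, which kept their sign. All-probe scaling gave miR-219 -4.71 and miR-96 -2.50, and quantile normalization gave miR-219 -2.92, miR-183 -0.283 and miR-96 -0.369. Without scaling miR-219 was -0.240, with outlier spots kept miR-132 was 3.28 and miR-182 3.69, and with the mean of probes miR-182 was 0.0958.

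Leaving out each array in turn, the entries called ranged from 0 to 1 between dark and light and stayed at 0 for the rhythm, the cycle and the exact test. The miR-212 difference ranged from -0.13 to -0.05 between dark and light and from 0.05 to 0.15 between cycles (log2), both nearest 0 without ZT22. The dark minus light difference in units ranged from -1.02 to 0.0880 for miR-132 (ZT58 turned the sign), 0.230 to 1.52 for miR-219, -0.451 to 1.19 for miR-183 (ZT46), -4.94 to -0.332 for miR-96 and -0.143 to 1.14 for miR-182 (ZT34). The alternatives for the r of miR-212 with each named entry were chosen after seeing the data. With miR-143, r was 0.0228 without ZT22 and ZT50.

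With the replicate block, the cycle as a block, the miR-212 dark over light difference was -0.11 (limma, adjusted p = 0.773) and 0 entries were called. The labels pair no pools beyond the shared clock time.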
